A study of Mus musculus with 9 samples.

Results

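Immunoglobulin heavy and light chain transcripts were followed in mouse lung on 51 of the 45101 probe sets of the array, which stand for 26 of its 19337 annotated genes. A probe set is a group of short oligonucleotides that together read a transcript. The 51 were chosen by their annotation alone: at least 1 gene symbol of the platform table had to name an immunoglobulin heavy chain constant gene, the kappa constant gene, or a variable, joining or lambda constant gene. They comprised 23 heavy chain probe sets, on genes of chromosome 12, 24 kappa light chain probe sets, on chromosome 6, and 4 lambda light chain probe sets, on chromosome 16. Of these, 13 listed several symbols and 38 listed 1. All 26 gene identifiers behind them matched the RefSeq gene table of mouse assembly GRCm38.p6, which supplied the chromosomes. In that annotation no probe set of the array carried the symbols of IgD, IgE or the IgG1, IgG2b and IgG2c heavy chains, so those isotypes were not analysed here. Isotypes could be compared for IgM (Ighm, 12 probe sets), IgA (Igha, 3) and IgG (Ighg3, the IgG3 heavy chain, 4). A further 3 probe sets listed Ighm and Ighg3 together.

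An antibody is built of heavy chains, whose constant region sets the isotype, and light chains of the kappa or lambda type. Naive B cells carry IgM on their surface, and after activation they can switch the heavy chain constant region to IgG, IgA or IgE. IL-4 is known in mice for directing switching towards IgG1 and IgE. Antibody-secreting plasma cells make far more immunoglobulin transcript than resting B cells do, and in the airways secreted IgA and IgM are joined by the J chain and carried across the epithelium. Each clone of B cells uses 1 rearranged variable segment per chain, and the segments within a family are close in sequence.

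The lungs came from 9 female C57BL/6 mice aged 14 weeks, 1 array per mouse, with 3 mice per virus. All 9 had received a replication-deficient adenovirus into the trachea 14 days before. The AdV-IL4 virus drove mouse IL-4 in the lung, and the AdV-IL4d2 virus drove mouse IL-4d2, which is made from the same gene by alternative splicing, while the control virus AdV-NULL encoded no cytokine. Adenovirus infection itself was thus common to all groups, uninfected lung was not part of the design, and the comparisons ask what each form of the cytokine changed relative to the empty virus and where the forms differed. Signals are MAS5 intensities in arbitrary units, with array medians of 156 to 171. All 10 lung markers examined lay above the array median on all 9 arrays, for example surfactant protein C (Sftpc), at 25944 to 41165. Heart and skeletal muscle genes varied between the lungs: their mean log2 signal ran from 7.27 to 9.21 on AdV-IL4 arrays, from 8.82 to 10.2 on AdV-IL4d2 arrays and from 10.1 to 12.8 on AdV-NULL arrays, with AdV-NULL mouse 1 the highest and AdV-IL4 mouse 2 the lowest. Without those 2 arrays, 20 of 30 tested immunoglobulin probe sets were called higher with AdV-IL4, against 575 of all 23824 tested probe sets. With AdV-IL4d2 they were 19 of 30, against 147 of 23824, and of those arrays only AdV-NULL mouse 1 belongs to that comparison. The ratio of 3′ to 5′ signal of Gapdh, a sign of RNA quality, was 1.80, 1.78 and 1.54 on AdV-IL4 arrays and 1.57, 1.35 and 1.47 on AdV-IL4d2 arrays, against 0.955, 1.45 and 1.44 on AdV-NULL arrays. All AdV-IL4 arrays thus lay above all AdV-NULL arrays in this ratio, while AdV-IL4d2 arrays overlapped with them. For Actb the ratio was 3.75, 3.155 and 2.79 on AdV-IL4 arrays and 2.79, 2.61 and 2.34 on AdV-IL4d2 arrays. On AdV-NULL arrays it was 2.28, 2.80 and 2.88, so both cytokine groups overlapped the controls. The part of RNA quality in the immunoglobulin results was not tested. In whole lung, a change in the number of antibody-making cells and a change in immunoglobulin RNA per cell cannot be told apart.

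Immunoglobulin signals were higher than in AdV-NULL lungs with either cytokine virus, across heavy, kappa and lambda chains, and no probe set was called lower. A probe set was tested where it exceeded the median of its array on at least 3 of 9 arrays, and it was called at a limma adjusted p under 0.05. This left 30 of the 51, and the other 21 had signals between 0.674 and 277. Of the 30, 25 were called higher with AdV-IL4, where 5.6% of all 23824 tested probe sets were called higher, and 23 with AdV-IL4d2, where 0.928% were. Limma called 0 of the 30 lower with either virus, against 5.08% and 0.39% of all tested probe sets. Since some probe sets passed the filter only through the cytokine arrays, the counts were also taken over all 51 without the filter. These were 25 higher with AdV-IL4 (2.28% of all 45037 probe sets) and 21 higher with AdV-IL4d2 (0.346%). The median log2 difference of the 51 was 1.62 with AdV-IL4, against 0.0098 over all probe sets, and 1.52 with AdV-IL4d2, against −0.0031. Among the 12 that exceeded the median on all 3 control arrays, and so did not depend on the cytokine arrays to be tested, 11 were called higher with AdV-IL4 and 10 with AdV-IL4d2. The shares over all 20646 probe sets bright in control lungs were 5.51% and 0.906%. Both comparisons use the same 3 control arrays, so they are given side by side and not as independent evidence of each other.

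IgM heavy chain signals rose on 8 of the 9 tested Ighm probe sets with AdV-IL4 and on 8 of 9 with AdV-IL4d2. Of all tested probe sets, 5.6% and 0.928% were called higher. Several of the 9 passed the filter only through the cytokine arrays. Without the filter the counts were 8 of 12 with each virus, against 2.28% and 0.346% of all probe sets. IgM stands here for the annotated symbol: whether each Ighm probe set reads IgM or the heavy chain of another isotype, IgG included, was not tested. Different sizes of response stood side by side under this 1 symbol. Probe set 1427351_s_at, which had the highest mean log2 signal of them, had signals of 4138, 7628 and 7825 in AdV-IL4 lungs and 4402, 12259 and 6115 in AdV-IL4d2 lungs, against 839, 1614 and 860.1 in AdV-NULL lungs. All cytokine-virus lungs lay above all control lungs, and the AdV-IL4d2 mice spread most widely. The difference was 5.89-fold with AdV-IL4 (log2 difference 2.56 ± 0.36, adjusted p = 0.00117) and 6.48-fold with AdV-IL4d2 (log2 difference 2.70 ± 0.36, adjusted p = 0.00212). The other Ighm probe set with control signals of this size, 1427329_a_at, gave 2846, 3985 and 4485 in AdV-IL4 lungs and 2776, 6833 and 3647 in AdV-IL4d2 lungs, against 1071, 1320.5 and 1058 in AdV-NULL lungs, again without overlap between cytokine and control lungs. It rose 3.21-fold (log2 difference 1.68 ± 0.26, adjusted p = 0.00232) with AdV-IL4 and 3.55-fold (log2 difference 1.83 ± 0.26, adjusted p = 0.00399) with AdV-IL4d2.

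On 5 further Ighm probe sets the control signals were lower, at or under 395, and the rise was larger. Signals of 1425385_a_at were 6588, 20609.7 and 17355 in AdV-IL4 lungs and 10617, 20619 and 7016 in AdV-IL4d2 lungs, against 8.60, 96.3 and 129 in AdV-NULL lungs. The control signal of AdV-NULL mouse 1 lay at or below that of the brightest trpn probe set, which reads a bacterial transcript and marks background, and every cytokine-virus lung was far above all control lungs. The log2 difference with AdV-IL4 was the largest of any immunoglobulin probe set when all arrays were used, at 7.50 ± 0.61 (adjusted p = 2.61e-05), and it was 7.29 ± 0.61 with AdV-IL4d2 (adjusted p = 4.47e-05). Without AdV-NULL mouse 1 the values were 6.70 and 6.50, and 1427756_x_at then had the larger change with AdV-IL4, at 7.07. Probe set 1425247_a_at gave 5615, 6566 and 7532 in AdV-IL4 lungs and 13726, 20449 and 3637 in AdV-IL4d2 lungs, against 159, 89.5 and 127 in AdV-NULL lungs. Its log2 differences were 5.56 with AdV-IL4 and 6.19 with AdV-IL4d2 (adjusted p = 2.99e-05 and 2.05e-05), and 6.92 with AdV-IL4d2 once mouse 3 of that group was left out. The pair 1427756_x_at and 1425324_x_at averaged 3426 ± 361 and 3084 ± 549 in AdV-IL4 lungs, 5751 ± 3525 and 5974 ± 3964 in AdV-IL4d2 lungs, and 20.4 ± 18.7 and 31.5 ± 45.8 in AdV-NULL lungs (SD, n = 3 each). Their log2 differences were 6.68 and 6.44 with AdV-IL4 and 7.19 and 7.11 with AdV-IL4d2, all 4 called. On both, 2 of 3 control arrays lay at or below the brightest trpn probe set, so the sizes are not fixed. With those control signals raised to that background, the ratio of geometric means of 1427756_x_at was 123 with AdV-IL4 and 175 with AdV-IL4d2. For 1425324_x_at it was 102 and 163. These ratios carry no error. The log2 differences moved to 7.80 and 7.80 with AdV-IL4d2 without AdV-IL4d2 mouse 3, and without AdV-NULL mouse 2 probe set 1425324_x_at had 7.20 with AdV-IL4 and 7.87 with AdV-IL4d2. Probe set 1427870_x_at had 4864, 6212 and 6194 in AdV-IL4 lungs and 8782, 12317 and 4149.7 in AdV-IL4d2 lungs, against 395, 291 and 191 in AdV-NULL lungs, and its log2 differences were 4.27 and 4.69 (adjusted p = 1.90e-05 with AdV-IL4 and 1.59e-05 with AdV-IL4d2).

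The remaining tested Ighm probe sets had signals at or under 447 on all arrays. Signals of 1427869_at were 308, 147 and 172 in AdV-IL4 lungs and 198, 263 and 43.4 in AdV-IL4d2 lungs, against 2.92, 7.86 and 5.09 in AdV-NULL lungs, so control lungs lay at or below the brightest trpn probe set on 3 of 3 control arrays. With control signals raised to that background, the ratio of geometric means of 1427869_at was 7.65 with AdV-IL4 and 5.06 with AdV-IL4d2, without an error. Limma called this probe set with both viruses (adjusted p = 0.00301 with AdV-IL4 and 0.0265 with AdV-IL4d2). Its log2 difference with AdV-IL4d2, 2.85, lost its call without AdV-IL4d2 mouse 1 (2.60), AdV-IL4d2 mouse 2 (2.41), AdV-NULL mouse 1 (2.76) or AdV-NULL mouse 3 (2.84), and was 3.53 without AdV-IL4d2 mouse 3. Probe set 1452535_at had 294, 243 and 390.3 in AdV-IL4 lungs and 237, 447 and 169 in AdV-IL4d2 lungs, against 206, 124 and 131 in AdV-NULL lungs. Its log2 difference was 0.94 with AdV-IL4, where the groups did not overlap, and 0.75 with AdV-IL4d2, where they did, and neither passed the test (adjusted p = 0.0755 and 0.295). Without AdV-IL4d2 mouse 2 in the fit the AdV-IL4 value did pass, at an adjusted p of 0.0372.

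The Ighm probe sets thus changed unequally within the same arrays. Relative to 1427351_s_at on the same array, 1427329_a_at changed by −0.88 log2 units with AdV-IL4 and −0.87 with AdV-IL4d2. The 5 probe sets of lower control signal changed by 1.72 to 4.94 log2 units more with AdV-IL4 and by up to 4.59 more with AdV-IL4d2. For 3 of these 5 the sizes are not fixed, since 1 control array (1425385_a_at) or 2 (1427756_x_at and 1425324_x_at) lay at or below background. Probe set 1452535_at changed by −1.61 with AdV-IL4 and −1.95 with AdV-IL4d2. In each of these cases the per-array differences of the cytokine lungs did not overlap those of the control lungs. For 1427869_at they overlapped, at 0.79 and 0.15. Of the 51 immunoglobulin probe sets, 17 carry the suffix _x_at and 4 the suffix _s_at. Affymetrix uses both for probe sets with probes shared with other sequences, and 1427351_s_at is among the 4. The size of the changes of Ighm probe sets with low control signals also depends on the constant of 16 added before taking logs: for 1427756_x_at the AdV-IL4 value was 7.71 with a constant of 1 and 5.39 with 64. Without the filter, 3 more Ighm probe sets were examined, and none was called.

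**Figure D1:**
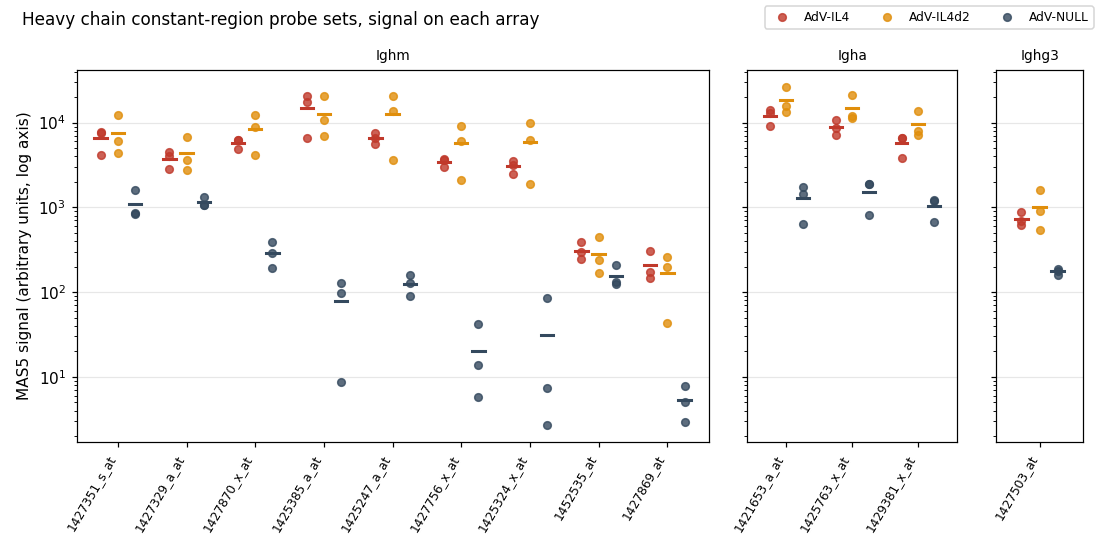
Heavy chain probe sets with a constant-region symbol that were tested, with 1 point per array and a bar at the mean of the 3 mice of a virus, on a log axis of MAS5 signal. The cytokine-virus points of 1425385_a_at reach 20619 while its control points stay at or under 129, whereas the control points of 1427329_a_at lie at 1058 or above.

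IgA heavy chain signals rose with both viruses on all 3 Igha probe sets, and in control lungs all 3 were already above the array median. Probe set 1421653_a_at had 9112, 14173 and 12873 in AdV-IL4 lungs and 13436, 26635 and 15632 in AdV-IL4d2 lungs, against 1762, 1440.0 and 638 in AdV-NULL lungs. All cytokine-virus lungs lay above all control lungs, AdV-IL4d2 mouse 2 was the highest, and AdV-NULL mouse 3 the lowest. It rose 9.95-fold with AdV-IL4 (log2 difference 3.32 ± 0.33, adjusted p = 0.000135) and 14.9-fold with AdV-IL4d2 (log2 difference 3.90 ± 0.33, adjusted p = 5.06e-05). On 1425763_x_at the signals were 7207, 10885 and 8729.7 in AdV-IL4 lungs and 11396, 21320.0 and 11816 in AdV-IL4d2 lungs, against 1894, 1866 and 810.4 in AdV-NULL lungs. It rose 6.14-fold with AdV-IL4 (log2 difference 2.62 ± 0.31, adjusted p = 0.000372) and 9.90-fold with AdV-IL4d2 (log2 difference 3.31 ± 0.31, adjusted p = 0.000103). The values of 1429381_x_at were 3859, 6623 and 6548 in AdV-IL4 lungs and 7093, 13782 and 7897 in AdV-IL4d2 lungs, against 1203, 1228 and 669 in AdV-NULL lungs, with differences of 5.46-fold (adjusted p = 0.000352) for AdV-IL4 and 9.07-fold (adjusted p = 7.66e-05) for AdV-IL4d2. These 6 calls held in every fit with 1 array left out.

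IgG heavy chain could be judged on 1 Ighg3 probe set, 1427503_at, since the other 3 did not pass the filter. Its signals were 613, 696 and 890.2 in AdV-IL4 lungs and 916, 1602 and 534 in AdV-IL4d2 lungs, against 178, 157 and 189.5 in AdV-NULL lungs. No cytokine-virus lung overlapped a control lung, and the control mice differed little from each other. It rose 3.88-fold with AdV-IL4 (log2 difference 1.96 ± 0.29, adjusted p = 0.00182) and 4.93-fold with AdV-IL4d2 (log2 difference 2.30 ± 0.29, adjusted p = 0.00163), and both calls held in every fit with 1 array left out. Without the filter, limma called 0 of the other 3 Ighg3 probe sets and 0 of the 3 that list Ighm and Ighg3 together in either control comparison, with log2 differences of 0.55 to 1.79 for the joint ones with AdV-IL4 and 0.51 to 1.51 with AdV-IL4d2.

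Kappa light chain rose on all 3 probe sets that list the kappa constant gene Igkc, each together with a joining and several variable segments. Kappa is the light chain of most mouse antibodies. Signals of 1427660_x_at were 24216, 24037 and 23674 in AdV-IL4 lungs and 19681, 23797 and 18847 in AdV-IL4d2 lungs, against 7753, 7892 and 6632 in AdV-NULL lungs. The 3 AdV-IL4 lungs had an SD of 276 around a mean of 23976, and all cytokine lungs were above all control lungs. This was 3.23-fold with AdV-IL4 (log2 difference 1.69 ± 0.10, adjusted p = 3.28e-06) and 2.79-fold with AdV-IL4d2 (log2 difference 1.48 ± 0.10, adjusted p = 1.49e-05). The companion 1452417_x_at had 23183, 21470.5 and 19966 in AdV-IL4 lungs and 16811, 19193 and 16002 in AdV-IL4d2 lungs, against 7414, 6580.5 and 7052 in AdV-NULL lungs, with rises of 3.06-fold with AdV-IL4 (log2 difference 1.62 ± 0.09, adjusted p = 2.78e-06) and 2.46-fold with AdV-IL4d2 (log2 difference 1.30 ± 0.09, adjusted p = 1.70e-05). On 1427455_x_at the values were 16308, 26344 and 25038 in AdV-IL4 lungs and 21343, 34382 and 18291 in AdV-IL4d2 lungs, against 3161, 3522 and 2569.6 in AdV-NULL lungs. It rose 7.19-fold (adjusted p = 2.19e-05) with AdV-IL4 and 7.74-fold (adjusted p = 2.38e-05) with AdV-IL4d2. All 6 kappa constant calls held in every fit with 1 array left out.

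Lambda light chain, the minor light chain of mice, rose on the probe set that lists the constant gene Iglc1 with Iglv1, 1424931_s_at. It had 450.1, 605 and 439.9 in AdV-IL4 lungs and 907, 1891 and 458 in AdV-IL4d2 lungs, against 119.5, 85.2 and 97.9 in AdV-NULL lungs, with the highest value in AdV-IL4d2 mouse 2 and no overlap with control lungs. The rise was 4.39-fold with AdV-IL4 (log2 difference 2.13 ± 0.37, adjusted p = 0.00392) and 8.11-fold with AdV-IL4d2 (log2 difference 3.02 ± 0.37, adjusted p = 0.00109). Of the probe sets that list Iglv1 alone, 1430523_s_at gave 596, 1129 and 837 in AdV-IL4 lungs and 871, 2757 and 680.0 in AdV-IL4d2 lungs, against 209, 169.7 and 120.2 in AdV-NULL lungs. It was 4.72-fold (adjusted p = 0.00585) and 6.71-fold (adjusted p = 0.00528) higher with AdV-IL4 and AdV-IL4d2, and the log2 difference of 2.75 with AdV-IL4d2 was 2.14 without AdV-IL4d2 mouse 2. The other, 1447918_x_at, had 878, 806 and 817 in AdV-IL4 lungs and 649, 1205 and 749.7 in AdV-IL4d2 lungs, against 453, 547 and 308 in AdV-NULL lungs, and these groups did not overlap either. It was called with AdV-IL4 (log2 difference 0.95 ± 0.22, adjusted p = 0.0196) but not without AdV-IL4 mouse 1 (0.91) or AdV-NULL mouse 3 (0.72). With AdV-IL4d2 the difference was of like size and missed the threshold (log2 difference 0.95 ± 0.22, adjusted p = 0.0627), and it passed without AdV-NULL mouse 2 (1.13, adjusted p = 0.0375).

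Variable segments differed among themselves. Of the 13 tested probe sets that list only variable or joining segments, limma called 9 higher with AdV-IL4 and 7 with AdV-IL4d2, and 0 lower. The shares called higher over all tested probe sets were 5.6% and 0.928%. Some of the 13 passed the filter only through the cytokine arrays. Without the filter the counts were 9 and 5 of 25, against 2.28% and 0.346% of all probe sets. With AdV-IL4d2 the calls of 1427860_at (adjusted p = 0.0706) and 1427576_at (0.0865) were then lost. The kappa segment Igkv8-30, on 1452463_x_at, had 10504, 21764 and 26947 in AdV-IL4 lungs and 21774, 35308 and 14748 in AdV-IL4d2 lungs, against 804, 1082 and 767 in AdV-NULL lungs. Even the lowest cytokine lung, AdV-IL4 mouse 1, was far above the highest control lung. It rose 20.6-fold with AdV-IL4 (log2 difference 4.37 ± 0.33, adjusted p = 1.90e-05) and 25.3-fold with AdV-IL4d2 (log2 difference 4.66 ± 0.33, adjusted p = 1.70e-05), and was called in every fit with 1 array left out. Igkv9-120, on 1460423_x_at, had 222, 1031 and 1178 in AdV-IL4 lungs and 346, 3924 and 1101 in AdV-IL4d2 lungs, against 49.4, 42.3 and 72.1 in AdV-NULL lungs, values that were spread widely among the mice of each cytokine virus. Its log2 difference of 3.26 with AdV-IL4 (adjusted p = 0.0153) was 4.01 without AdV-IL4 mouse 1 and lost its call without AdV-IL4 mouse 3 (2.84). With AdV-IL4d2 it was 4.07 (adjusted p = 0.0173), moved to 4.92 without mouse 1 and 3.19 without mouse 2 of that group, and lost its call without AdV-IL4d2 mouse 3 (4.10) or AdV-NULL mouse 1 (4.03).

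Probe set 1451965_at, which lists Igkv6-14, Igkv6-23 and Igkv8-19, had 187, 703 and 1530.1 in AdV-IL4 lungs and 1847, 2562 and 620.0 in AdV-IL4d2 lungs, against 58.5, 87.1 and 109 in AdV-NULL lungs, with AdV-IL4 mouse 1 the closest to the controls. It was called with both AdV-IL4 (log2 difference 2.63 ± 0.62, adjusted p = 0.0201) and AdV-IL4d2 (log2 difference 3.88 ± 0.62, adjusted p = 0.00815). The AdV-IL4 call was lost without AdV-IL4 mouse 2 (2.51), AdV-IL4 mouse 3 (1.96) or AdV-NULL mouse 1 (2.43). Without AdV-IL4 mouse 1 it was 3.42, and the AdV-IL4d2 value was 4.47 without AdV-IL4d2 mouse 3. Igkv6-14 alone, on 1427860_at, had 235, 681 and 789 in AdV-IL4 lungs and 198, 640.1 and 375 in AdV-IL4d2 lungs, against 77.0, 44.1 and 82.7 in AdV-NULL lungs. It rose with AdV-IL4 (log2 difference 2.67 ± 0.45, adjusted p = 0.00346). With AdV-IL4d2 (log2 difference 2.21 ± 0.45, adjusted p = 0.0334) the call was lost without AdV-IL4d2 mouse 2 (1.82) or 3 (2.19) and without AdV-NULL mouse 1 (2.30), 2 (1.99) or 3 (2.35). The heavy chain segment Ighv14-2, on 1455530_at, was different, with 749, 708 and 756 in AdV-IL4 lungs and 721, 756 and 723 in AdV-IL4d2 lungs, against 818, 799 and 506 in AdV-NULL lungs. The groups overlapped, and with the authors' scaling the log2 differences of 0.09 and 0.081 did not pass the test (adjusted p = 0.766 with AdV-IL4 and 0.864 with AdV-IL4d2). The 95% intervals of these differences ran from −0.25 to 0.43 and from −0.26 to 0.42. Scaled to spiked-in poly-A controls, it was called lower with AdV-IL4 (−0.68, adjusted p = 0.0103), where the median of all probe sets shifted by −0.76. Another 6 tested kappa segment probe sets had log2 differences between 0.89 and 2.38 with AdV-IL4, 3 of them called, and between 0.0038 and 2.48 with AdV-IL4d2, 2 of them called. Over all tested probe sets, 5.6% and 0.928% were called higher.

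**Figure D2:**
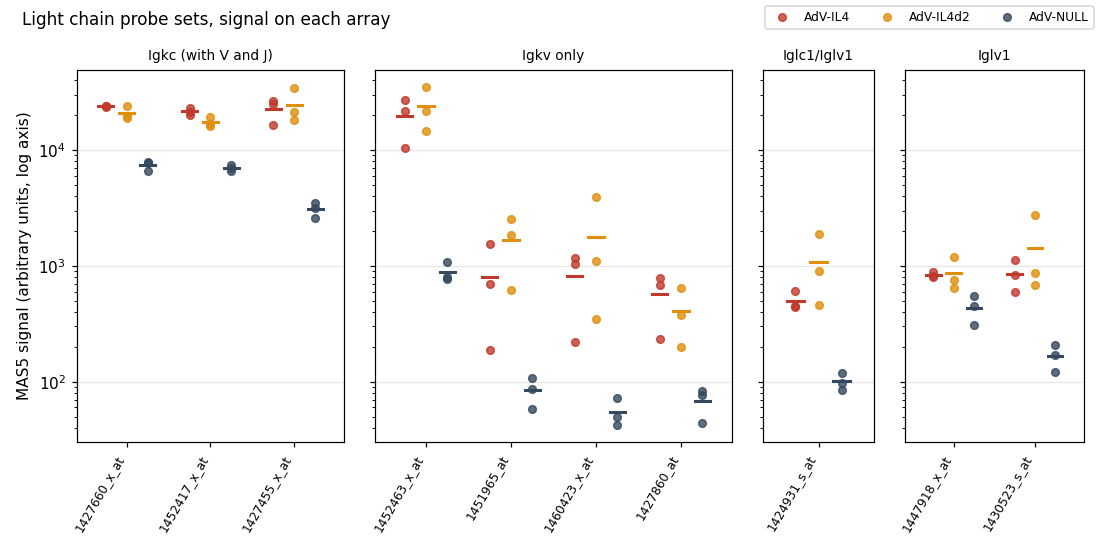
Light chain probe sets named in the text, with 1 point per array and a bar at the mean of the 3 mice of a virus, on a log axis of MAS5 signal. AdV-IL4d2 mouse 2 gives the top point of 1452463_x_at, 1451965_at, 1460423_x_at and 1424931_s_at, and the 3 AdV-IL4 points of 1427660_x_at lie close together around 23976.

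**Figure D3:**
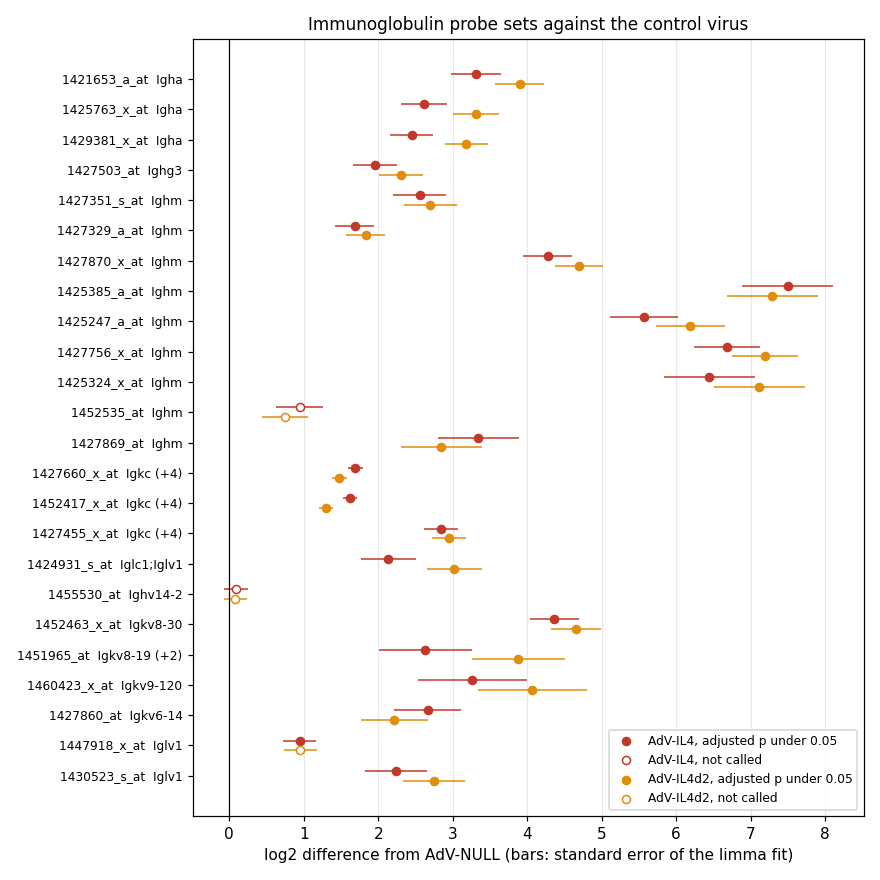
Log2 differences from AdV-NULL of the 24 named immunoglobulin probe sets, with AdV-IL4 in red above AdV-IL4d2 in orange, bars for the standard error and filled points for calls at an adjusted p under 0.05. The 4 probe sets with the largest differences, 1425385_a_at, 1427756_x_at, 1425324_x_at and 1425247_a_at, are all annotated Ighm, and 1455530_at lies near 0 with both viruses.

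Between the cytokine viruses, limma called 0 of the 30 immunoglobulin probe sets, where 1.75% of all tested probe sets were called, and 0 of all 51 without the filter, where 0.542% were. At an unadjusted p under 0.05 there were 5 of 30, against 16.4% of all tested probe sets. The IgA probe sets had the lower signals in AdV-IL4 lungs: 1421653_a_at differed by −0.58 (95% interval −1.31 to 0.14), 1425763_x_at by −0.69 (−1.36 to −0.016) and 1429381_x_at by −0.73 (−1.36 to −0.11), with adjusted p = 0.414, 0.292 and 0.225 in that order. On 1425763_x_at and 1429381_x_at the AdV-IL4 lungs lay entirely below the AdV-IL4d2 lungs, and on 1421653_a_at they overlapped. Groups lay apart in this way on 2 of the 30 immunoglobulin probe sets lower in AdV-IL4 lungs and on 1 higher. Over all tested probe sets the shares were 11% and 11%, so such separation was no more frequent among immunoglobulin probe sets. The lambda probe set 1424931_s_at was also lower in AdV-IL4 lungs by value, at −0.89 (−1.69 to −0.087, adjusted p = 0.252), with overlapping groups. On the kappa probe set 1452417_x_at the AdV-IL4 lungs lay entirely above the AdV-IL4d2 lungs (log2 difference 0.31 ± 0.09, adjusted p = 0.118, 95% interval 0.11 to 0.52), a difference that was not called and that turned to −0.26 and −0.75 when arrays were scaled to spiked-in hybridisation and poly-A controls. For 1427660_x_at the value was 0.21 (−0.0075 to 0.44, adjusted p = 0.32), and −0.36 and −0.85 with those scalings. For IgM the log2 difference of 1427351_s_at was −0.14 (−0.92 to 0.64, adjusted p = 0.886), and that of Ighg3 was −0.34 (−0.98 to 0.30, adjusted p = 0.604). The Ighm probe sets of low control signal left wide intervals, for example −1.12 to 1.53 around 0.21 for 1425385_a_at and −1.63 to 0.38 around −0.63 for 1425247_a_at. With 3 mice a group the absence of calls does not show that the 2 forms of the cytokine act alike. Without AdV-IL4d2 mouse 3, 1425247_a_at was called lower in AdV-IL4 lungs (log2 difference −1.36, adjusted p = 0.0277), against −0.63 with all arrays. These values rest on the authors' scaling. Scaled to the hybridisation controls, 18 of the 30 were called lower in AdV-IL4 lungs, against 13304 of all 23824 tested probe sets, whose median shifted by −0.56. Scaled to the poly-A controls 26 were, against 22406 of 23824, with a shift of −1.03. Calls with these scalings were thus not particular to immunoglobulin probe sets.

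**Figure D4:**
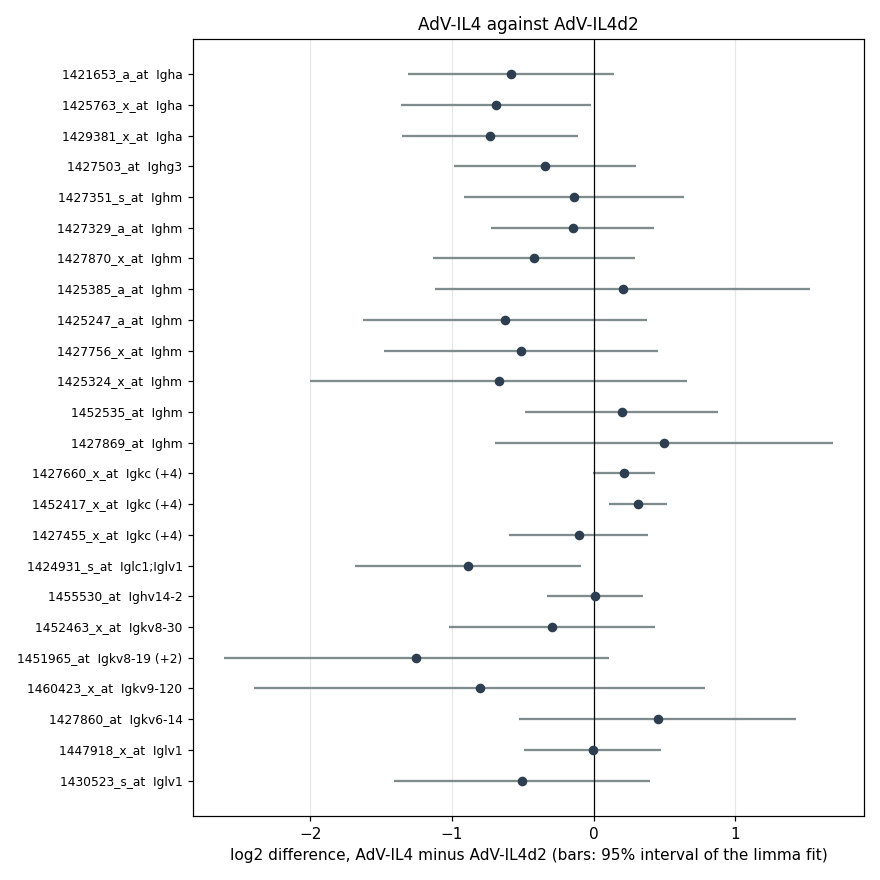
Log2 differences between AdV-IL4 and AdV-IL4d2 lungs (AdV-IL4 minus AdV-IL4d2) for the 24 named probe sets, with 95% intervals of the limma fit. The 3 Igha points lie between −0.73 and −0.58, most intervals include 0, and no difference was called.

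The change of each isotype or light chain was also set against that of IgM within the same array, from the brightest constant-region probe set of each class (1421653_a_at for IgA, 1427503_at for IgG, 1427660_x_at for kappa and 1424931_s_at for lambda, each relative to 1427351_s_at). For bright probe sets this difference of changes hardly depends on how an array was scaled. Relative to 1427351_s_at, IgA changed by 1.20 log2 units more with AdV-IL4d2, and the per-array values of 1.45, 0.96 and 1.19, against 0.90, −0.32 and −0.58 in AdV-NULL lungs, did not overlap. Kappa, read on 1427660_x_at, changed less than 1427351_s_at with AdV-IL4d2, by −1.22, from −0.64, −1.84 and −1.17, against 0.39, −0.52 and 0.13 in AdV-NULL lungs, again without overlap. Both had an exact two-sided permutation p = 0.1, the smallest that 3 against 3 arrays can give, and 0.514 after adjustment over the 12 such comparisons. With AdV-IL4 the relative changes were 0.76 for IgA (exact permutation p = 0.3) and −0.86 for kappa (0.2), and the groups overlapped. The order of kappa and IgM rests on the kappa probe set chosen. On 1427455_x_at, which lists the same symbols, the log2 differences were 2.85 with AdV-IL4 and 2.95 with AdV-IL4d2. Those are above the 2.56 and 2.70 of 1427351_s_at, while those of 1452417_x_at, at 1.62 and 1.30, are below. IgG changed relative to IgM by −0.60 with AdV-IL4 and −0.40 with AdV-IL4d2 (exact permutation p = 0.3 and 0.5), and lambda by −0.42 and 0.32 (0.4 and 0.6). Between AdV-IL4 and AdV-IL4d2 the relative changes were −0.20 for IgG, −0.44 for IgA, 0.35 for kappa and −0.75 for lambda, with exact permutation p from 0.2 to 0.7. The kappa, IgG and lambda values with AdV-IL4 and the IgG value with AdV-IL4d2 turned sign when the second brightest Ighm probe set took the place of the brightest, and with AdV-IL4d2 the IgA value was then 2.07, the kappa value −0.35 and the lambda value 1.19 (exact permutation p = 0.1, 0.3 and 0.1). The IgA value with AdV-IL4 was then 1.63 (exact permutation p = 0.1). The choice of Igha probe set mattered as well. With AdV-IL4, 1425763_x_at and 1429381_x_at had log2 differences of 2.62 and 2.45, against 2.56 for 1427351_s_at and 3.32 for 1421653_a_at. With AdV-IL4d2 they had 3.31 and 3.18, against 2.70 and 3.90. The order of IgA and IgM thus rests on the Igha and Ighm probe sets chosen. Of the 9 tested Ighm probe sets, 6 had larger log2 differences than 1421653_a_at with AdV-IL4 (3.34 to 7.50, against 3.32). With AdV-IL4d2, 5 did (4.69 to 7.29, against 3.90). Among these only 1427870_x_at exceeded the median on all control arrays, and the others passed the filter only through the cytokine arrays. The 3.34 was that of 1427869_at, with control signals at background, and was 5.07 with a constant of 1 and 1.94 with 64.

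Mice given the same virus differed in their immunoglobulin signals. Over the 12 immunoglobulin probe sets above the median on all 9 arrays, the highest mouse of a group exceeded the lowest by a median of 1.53-fold with AdV-IL4, 1.91-fold with AdV-IL4d2 and 1.70-fold with AdV-NULL. Over all 18992 such probe sets the medians were 1.22, 1.18 and 1.20. AdV-IL4d2 mouse 2 was the highest of its group on 29 of the 30 tested probe sets and the highest of all 9 mice on 23. AdV-IL4 mouse 1 was the lowest of its group on 22, AdV-IL4d2 mouse 3 on 17 and AdV-NULL mouse 3 on 15. The mean log2 signal of the plasma cell list was likewise highest on the array of AdV-IL4d2 mouse 2, at 10.4, against 9.91 to 10.3 on the other cytokine-virus arrays and 9.37 to 9.59 on AdV-NULL arrays. That of the B cell list was instead highest for AdV-IL4 mouse 1, at 9.39, with 9.35 for AdV-IL4 mouse 3 and 9.21 for AdV-IL4d2 mouse 2. Probe sets of the same array share 1 RNA preparation, so these ranks describe the mice and are not separate observations. Without AdV-IL4d2 mouse 2, or any other array, between 21 and 27 immunoglobulin probe sets were called with AdV-IL4 and between 19 and 24 with AdV-IL4d2.

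Genes that work with immunoglobulin were described by lists of genes chosen for their known roles. The J chain gene Jchain, which joins IgM and IgA units, had signals of 5903, 12486 and 12144 in AdV-IL4 lungs and 9134, 19089.8 and 7369 in AdV-IL4d2 lungs, against 452, 588 and 372 in AdV-NULL lungs. The change was 20.2-fold with AdV-IL4 (log2 difference 4.33 ± 0.34, adjusted p = 2.07e-05) and 22.8-fold with AdV-IL4d2 (log2 difference 4.51 ± 0.34, adjusted p = 2.12e-05). Of 19 tested plasma cell genes, Jchain included, 10 rose and 1 fell with AdV-IL4, and 6 rose with AdV-IL4d2, against 5.6% and 0.928% of all tested probe sets called higher. Their median log2 differences were 0.67 and 0.22. With 1 array left out, 8 to 10 were called higher with AdV-IL4, where Eaf2 lost its call in 6 of 9 fits and Derl3 in 5. With AdV-IL4d2 these were 4 to 6, where Pdia4 lost its call in 7 of 9 fits and Tent5c in 5. Mzb1, a chaperone for IgM assembly in the endoplasmic reticulum, had 1118, 1503 and 1629 in AdV-IL4 lungs and 1278, 2417 and 1269 in AdV-IL4d2 lungs, against 415, 412 and 455 in AdV-NULL lungs. It rose 3.19-fold with AdV-IL4 (log2 difference 1.68 ± 0.22, adjusted p = 0.000748) and 3.60-fold with AdV-IL4d2 (log2 difference 1.85 ± 0.22, adjusted p = 0.000783). The B cell coactivator Pou2af1 rose 2.72-fold with AdV-IL4 (adjusted p = 0.00109) and 2.52-fold with AdV-IL4d2 (adjusted p = 0.00522). The member that fell with AdV-IL4 was Prdm1, the transcription factor of plasma cell differentiation that T cells and other cells also use (log2 difference −0.55 ± 0.13, adjusted p = 0.0173). This call was lost without AdV-IL4 mouse 1 (−0.50, adjusted p = 0.0514) or AdV-NULL mouse 3 (−0.43, adjusted p = 0.0669).

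Of 22 tested B cell genes, 11 rose with AdV-IL4 and 3 (Ms4a1, Spib and Cd72) with AdV-IL4d2, where 5.6% and 0.928% of all tested probe sets were called higher, and their median log2 differences were 0.56 and 0.29. With 1 array left out, 7 to 12 were called higher with AdV-IL4, the fewest without AdV-IL4 mouse 1 or AdV-NULL mouse 1. With AdV-IL4d2 these were 2 to 5, with Ms4a1 lost in 6 of 9 fits and the most without AdV-NULL mouse 2. Spib, a transcription factor of the B cell lineage, had 897, 648 and 1143 in AdV-IL4 lungs and 1597, 996 and 883 in AdV-IL4d2 lungs, against 342, 306 and 307 in AdV-NULL lungs, without overlap, and rose 2.66-fold and 3.40-fold with AdV-IL4 and AdV-IL4d2 (adjusted p = 0.00228 and 0.00134). The difference between AdV-IL4 and AdV-IL4d2 was called by limma for 0 of the 22, with 3 at an unadjusted p under 0.05, against 16.4% of all tested probe sets. Of 14 tested class switching and germinal centre genes, 4 (Il4, Il21r, Batf and Cd40) rose with AdV-IL4 and 1 (Il4) with AdV-IL4d2. Of all tested probe sets, 5.6% and 0.928% were called higher. Both cytokine viruses carried a form of Il4, so its calls were set by the design and cannot be read as a response of the lung. Apart from Il4, no gene of this list was called with AdV-IL4d2. Batf, a transcription factor needed for switching in mice, rose 2.14-fold with AdV-IL4 (log2 difference 1.10 ± 0.17, adjusted p = 0.00244), and the IL-21 receptor Il21r 3.11-fold (log2 difference 1.64 ± 0.28, adjusted p = 0.00407). With AdV-IL4d2 both were called when 1 array was left out, Batf without AdV-NULL mouse 2 (0.88, adjusted p = 0.0114) and Il21r without AdV-IL4d2 mouse 2 (1.37, adjusted p = 0.0493). Of 11 tested genes of immunoglobulin transport and Fc receptors, 2 (Fcgr2b and Fcgr3) rose with AdV-IL4, where 5.6% of all tested probe sets were called higher. Limma called 0 with AdV-IL4d2, where 0.928% were. There 4 had an unadjusted p under 0.05, against 14.4% of all tested probe sets. Fcgr2b, the inhibitory IgG receptor of B cells and myeloid cells, had 2888, 2927 and 2707 in AdV-IL4 lungs and 1319.9, 1553 and 1645 in AdV-IL4d2 lungs, against 843, 1385 and 929.8 in AdV-NULL lungs. It rose 2.73-fold with AdV-IL4 (log2 difference 1.45 ± 0.16, adjusted p = 0.000198) and was called higher in AdV-IL4 than in AdV-IL4d2 lungs (log2 difference 0.91 ± 0.16, adjusted p = 0.0129), though not without AdV-IL4d2 mouse 1 (0.82, adjusted p = 0.0599). Without AdV-NULL mouse 2 it was also called with AdV-IL4d2 (0.75, adjusted p = 0.00652). Pigr, which carries IgA and IgM through epithelium, had 10518, 4075 and 7207 in AdV-IL4 lungs and 6276, 4019.5 and 3803 in AdV-IL4d2 lungs, against 3799, 6847 and 2195 in AdV-NULL lungs, with overlapping groups and no call. Ccl20, a chemokine that attracts Ccr6-bearing lymphocytes, was called higher with both viruses, as 1 of 2 among 8 survival and homing genes with AdV-IL4 (the other was Ccr6, whose call was lost in 7 of 9 fits with 1 array left out) and as 1 of 1 among the 8 with AdV-IL4d2. The shares of all tested probe sets called higher were 5.6% and 0.928%. Of 9 tested T cell genes, limma called 1 (Lat) higher with AdV-IL4 and 2 (Lat and Cd3g) with AdV-IL4d2, against the same shares of all tested probe sets. With AdV-IL4 the Lat call was lost in 8 of 9 fits with 1 array left out, all but that without AdV-NULL mouse 2. With AdV-IL4d2 Lat and Cd3g each lost their calls in 5 of 9, when any AdV-IL4d2 mouse, AdV-NULL mouse 1 or AdV-NULL mouse 3 was left out. Limma called 0 of 10 lung markers in any of the 3 comparisons, with 2, 0 and 1 at an unadjusted p under 0.05 with AdV-IL4, with AdV-IL4d2 and between them. The shares of all tested probe sets at that level were 25.9%, 14.4% and 16.4%. Without AdV-NULL mouse 2 limma called 3 lung markers with AdV-IL4. Of the 12 heart and skeletal muscle genes 10 were called lower with AdV-IL4, where 5.08% of all tested probe sets were. Limma called 0 with AdV-IL4d2, with 6 at an unadjusted p under 0.05, against 14.4% of all tested probe sets. With 1 array left out, 2 to 9 were called lower with AdV-IL4: 2 without AdV-NULL mouse 2, 3 without AdV-NULL mouse 1 or AdV-IL4 mouse 2, 6 without AdV-IL4 mouse 3 and 7 or more otherwise. With AdV-IL4d2, 3 were called lower without AdV-NULL mouse 3. The 5 matched genes of the surrogate light chain and of recombination, which mark developing B cells, did not pass the filter on any probe set.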

How the data were processed

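Total RNA of 9 lungs was read on 9 Affymetrix 3' expression arrays. The authors deposited 1 signal intensity per probe set and array, made with Affymetrix Expression Console 2.0, MAS5 and GCOS per the submitters' processing notes, and a 2% trimmed mean of 500.002 on each array shows 1 scale factor per array. MAS5 scaling hides a change shared by most transcripts, and low signals are noisy. For arrays no read depth applies, and 3 arrays per group limit the precision.

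Groups were taken from the sample titles. The tests were limma 3.58.1 (R 4.3.3) fits of log2(signal + 16), with lmFit and eBayes with a trend over all 9 arrays, tested on simulated data, with Benjamini-Hochberg adjustment over the 23824 probe sets tested in each comparison and a threshold of 0.05. The 64 control probe sets were left out. Fold changes are on the log2(signal + 16) scale and understate changes of dim probe sets. Ratios with control signals raised to background are the exception and were taken without the 16. Errors beside log2 differences are the standard errors that limma gives. Gene names come from the platform annotation, in which 34958 probe sets list 1 symbol, 932 several and 9211 none.

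The members and the lists were chosen with earlier results of these data known. The text names all tested probe sets with a constant-region symbol, the 4 brightest tested with only variable or joining symbols per chain, and up to 6 per comparison with the largest called changes. For each of the 9 gene lists it draws on the called genes with the largest changes and those of highest signal, and list genes whose calls were lost with 1 array left out are mostly given as counts. Alternatives were other pseudocounts, filters, scalings and variance models, the mouse number as a block, and fits without single arrays.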

Additional observations from a re-analysis of the deposited data

How the results depend on the processing

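Each immunoglobulin probe set called against AdV-NULL kept its direction under each alternative run. With poly-A scaling 1 that had not been called, Ighv14-2, was called lower with AdV-IL4 (26 higher and 1 lower). The number of calls stayed within 1.5 times, apart from the filter that asks for a signal above the median on all 9 arrays, which left 12 to test and called 11 with AdV-IL4 and 11 with AdV-IL4d2. Leaving out 1 array gave 21 to 27 calls with AdV-IL4, 19 to 24 with AdV-IL4d2 and 0 to 1 between AdV-IL4 and AdV-IL4d2. The titles give the mice of each virus the numbers 1 to 3, but same-numbered mice did not deviate together (r from −0.0694 to 0.116 over 9 pairs, against −0.133 to 0.132 over 18 pairs of different numbers). With that number as a replicate block, 26, 23 and 0 were called with AdV-IL4, with AdV-IL4d2 and between them. Scaling to spiked-in control transcripts moved the median of all probe sets between AdV-IL4 and AdV-IL4d2 by −0.56 (hybridisation controls) and −1.03 (poly-A controls). Then 18 and 26 of 30 immunoglobulin probe sets were called lower in AdV-IL4 lungs, against 13304 and 22406 of all 23824 tested. Against AdV-NULL these scalings moved that median by −0.44 and −0.76 with AdV-IL4, where all tested probe sets split into 299 higher and 7524 lower, or 158 and 17943, and by 0.12 and 0.26 with AdV-IL4d2.

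Over all tested probe sets, the AdV-IL4 count of 2546 was 1313 without AdV-NULL mouse 1, 1696 without AdV-NULL mouse 3 and 1068 without AdV-NULL mouse 1 and AdV-IL4 mouse 2. The AdV-IL4d2 count of 314 was 195 without a variance trend, 541 with poly-A scaling and 156 to 417 with 1 array left out. The count of 416 between AdV-IL4 and AdV-IL4d2 was 244 with no filter, 165 without a trend, 13393 and 22440 with hybridisation and poly-A scaling, 237 without those 2 arrays and 110 to 446 with 1 array left out.

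Values that turned sign had not been called with the authors' scaling and all arrays. After turning, 7 of 42 single probe set values passed the threshold, 1 with hybridisation and 6 with poly-A scaling. With the second brightest Ighm probe set, the changes relative to IgM were 0.28 for IgG, 0.011 for kappa and 0.45 for lambda with AdV-IL4, and 0.47 for IgG with AdV-IL4d2. The lambda value with AdV-IL4d2 was −0.040 with a pseudocount of 64 and −0.079 to 0.73 with 1 array left out, and IgG between AdV-IL4 and AdV-IL4d2 ran from −0.50 to 0.11. Ighv14-2 (1455530_at) with AdV-IL4 was −0.35 and −0.68 with hybridisation and poly-A scaling, the second called (adjusted p = 0.0103), and ran from −0.13 to 0.21 with AdV-IL4 and −0.14 to 0.20 with AdV-IL4d2 with 1 array left out. Between AdV-IL4 and AdV-IL4d2, hybridisation and poly-A scaling gave −0.37 and −0.85 for 1425385_a_at, −0.34 and −0.80 for 1452535_at, −0.011 and −0.45 for 1427869_at, −0.36 and −0.85 for 1427660_x_at, −0.26 and −0.75 for 1452417_x_at, −0.55 and −1.03 for 1455530_at, and −0.090 and −0.56 for 1427860_at. Without AdV-NULL mouse 1 and AdV-IL4 mouse 2, 1425385_a_at was −0.11 and 1447918_x_at 0.015. With 1 array left out, the ranges that crossed 0 were −0.15 to 0.71 (1425385_a_at), −0.43 to 0.22 (1427329_a_at), −0.46 to 0.27 (1427351_s_at), −0.30 to 0.16 (1427455_x_at), −0.73 to 0.049 (1427503_at), −0.18 to 0.93 (1427869_at), −0.90 to 0.10 (1430523_s_at), −0.19 to 0.25 (1447918_x_at), −0.60 to 0.11 (1452463_x_at), −0.098 to 0.56 (1452535_at), −0.0090 to 0.037 (1455530_at) and −1.65 to 0.072 (1460423_x_at). The cause of these moves was not tested.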
